A study of Mus musculus with 3 samples.

Results

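Broad binding sites of the thyroid hormone receptor TRα1 in the adult mouse striatum are described here. They were selected on measured values, from the length and the local background of each TR binding site (TRBS) in the deposited list. A TRBS was broad if it spanned at least 1000 bp and its local background did not exceed 6 fragments. This rule kept 999 of 23988 TRBS, or 4.16%, and these held 1240 kb of the 11800 kb covered by the whole list, or 10.5%. A further 9 TRBS of at least 1000 bp had a background of 13.1 to 225 fragments and were left with the other 22989 TRBS.

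Chromatin immunoprecipitation and sequencing (ChIP-seq) was run on striatal tissue. The mice were adult C57BL/6J males, aged 8 weeks, euthyroid and untreated. All 3 libraries came from mice with a GS-tagged TRα1 in GABAergic neurons, 2 of them being ChIP libraries and 1 an input library. The Cre driver or promoter that restricts the tag is not given in the sources used here, and no group lacked the tag or received T3. The list holds 1 summit per TRBS and gives no library separately. Replicates could therefore not be compared, and every interval below covers counting error over sites only. No transcript was measured, so that the labelled cell type could not be checked against its markers.

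TRα1 is a nuclear receptor for thyroid hormone (T3). It binds DNA mostly as a heterodimer with the retinoid X receptor (RXR), and its preferred element, DR4, holds AGGTCA in 2 direct copies that are 4 bp apart. Without T3 the receptor recruits corepressors, and with T3 it recruits coactivators. GABAergic projection neurons make up most neurons of the striatum.

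Sequences that show what broad TRBS contain are given first, read from GRCm38. Only 4 DR4 elements without a mismatch lay in broad TRBS, and all 4 are shown with 6 bp of flank and both half-sites in capitals. Those of Desi1 and 2310061I04Rik lay in exons with untranslated sequence, 16 and 77 bp from their summits. The one in an intron of Pcgf2 lay 111 bp and the intergenic one, 133009 bp upstream of Clvs1, 588 bp from the summit. The fold enrichment of these TRBS over local background was 13.8, 48.7, 24.5 and 21.1.
Desi1, chr15:82015388-82015415, minus strand: caggttAGGTCAagtcAGGTCAccctga
2310061I04Rik, chr17:35896734-35896761, plus strand: gatggcAGGTCAcccgAGGTCAagcctg
Pcgf2, chr11:97696539-97696566, plus strand: cacgagAGGTCAttcaAGGTCAcatcct
Clvs1, chr4:9135682-9135709, minus strand: ctgacaAGGTCAaatgAGGTCAagttga

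Most matches were weaker. With up to 2 of the 12 half-site bases mismatched, the following matches lay within 100 bp of the summit of strong broad TRBS or of genes treated below, and each had 2 mismatches. Trp53inp2 codes for an autophagy regulator, Ppp1r1b for DARPP-32, Pde1b for a calmodulin-dependent phosphodiesterase and Dbp for a clock output factor. Adgrl1 codes for the adhesion receptor latrophilin-1 and Prkci for an atypical protein kinase C.
Trp53inp2, chr2:155382232-155382259, minus strand: cccaccGGGTCAccagAGGACAagcacc
Ppp1r1b, chr11:98346094-98346121, plus strand: ggaattAAGTCAaatgAGGTCTtgaaat
Pde1b, chr15:103501095-103501122, plus strand: ggggtgAGGGCAgggcAGTTCAgcagaa
Dbp, chr7:45707842-45707869, minus strand: aagcccGGGTCAgccgAGGACAccagtt
Adgrl1, chr8:83909577-83909604, plus strand: caccctAGGGCActcgAGGACAgaccct
Prkci, chr3:31038895-31038922, plus strand: gaagttGGGTCAcaccGGGTCAcatgtg

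A different kind of sequence came from 4 broad TRBS with 10 or more matches, all in tandem repeats. The 120 bp around their summits are shown on the plus strand, with half-site positions of every match in capitals. The site nearest to Adam6b lay 2143 bp upstream of Ighm, the immunoglobulin mu constant gene, and held 116 matches, each with 2 mismatches. Neighbouring matches there were most often 10 bp apart, in 75 of 115 steps. The site in an intron of Cfap74 held 47 matches, most often 16 bp apart. In an intron of Iqch 17 matches recurred mostly every 37 or 38 bp, and in one of Myt1l 13 matches were most often 5 bp apart. The fold enrichment of these 4 TRBS was 52.2, 8.55, 16.3 and 61.0.
Adam6b, chr12:113424813-113424932: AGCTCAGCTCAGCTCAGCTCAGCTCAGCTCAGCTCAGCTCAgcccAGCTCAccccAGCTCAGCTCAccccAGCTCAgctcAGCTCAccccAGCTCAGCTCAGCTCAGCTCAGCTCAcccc
Cfap74, chr4:155416701-155416820: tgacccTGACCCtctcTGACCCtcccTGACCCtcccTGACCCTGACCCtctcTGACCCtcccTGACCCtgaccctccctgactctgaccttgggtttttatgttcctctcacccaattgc
Iqch, chr9:63556286-63556405: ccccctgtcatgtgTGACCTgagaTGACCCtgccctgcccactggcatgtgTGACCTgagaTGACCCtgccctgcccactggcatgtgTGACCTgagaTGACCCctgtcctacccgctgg
Myt1l, chr12:29701045-29701164: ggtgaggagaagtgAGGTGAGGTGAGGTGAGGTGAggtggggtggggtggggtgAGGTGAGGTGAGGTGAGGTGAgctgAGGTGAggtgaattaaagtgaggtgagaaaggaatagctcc

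Other broad TRBS sat on CpG-rich promoters. The median fold enrichment of broad TRBS was 15.7 within 1 kb of a transcription start site (TSS) and 20.8 beyond it, and 15.7 for CpG-rich summits. The 100 bp around the summits of the 3 strongest broad TRBS with a summit just upstream of a TSS are shown in the direction of the gene, with CG dinucleotides in capitals. They held 5, 14 and 9 CG at Kmt5c, Dot1l and Lingo3, and none had a DR4 match within 100 bp of the summit.
Kmt5c, chr7:4739922-4740021, plus strand: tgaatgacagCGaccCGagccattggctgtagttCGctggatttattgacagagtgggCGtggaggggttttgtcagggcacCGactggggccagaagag
Dot1l, chr10:80754929-80755028, plus strand: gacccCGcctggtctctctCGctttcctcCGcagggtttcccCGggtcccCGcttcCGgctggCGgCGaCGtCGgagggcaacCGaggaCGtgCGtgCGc
Lingo3, chr10:80844105-80844204, minus strand: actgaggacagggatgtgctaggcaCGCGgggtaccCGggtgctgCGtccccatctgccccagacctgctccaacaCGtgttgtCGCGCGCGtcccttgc

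The values behind the selection are given as a description. Broad TRBS had a median length of 1153 bp (range 1000 to 3951) against 412 bp in the other TRBS. Most were barely above the limit, since 677 of them were shorter than 1250 bp, 197 lay from 1250 to under 1500 bp, 103 from 1500 to under 2000 bp and 22 reached 2000 bp or more. The pileup, which is the ChIP fragment coverage at the summit, had a median of 57 fragments (14 to 445) against 21 in the others. The fold enrichment, which is the ratio of pileup to local background with 1 added to each, had a median of 18.6 (4.29 to 123) against 7.13. Length and strength were thus not the same property, and long but weak TRBS occurred as well as short and strong ones. In the length classes the median fold enrichment was 17.7, 17.9, 26.5 and 20.4 from the shortest to the longest.

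**Figure D1:**
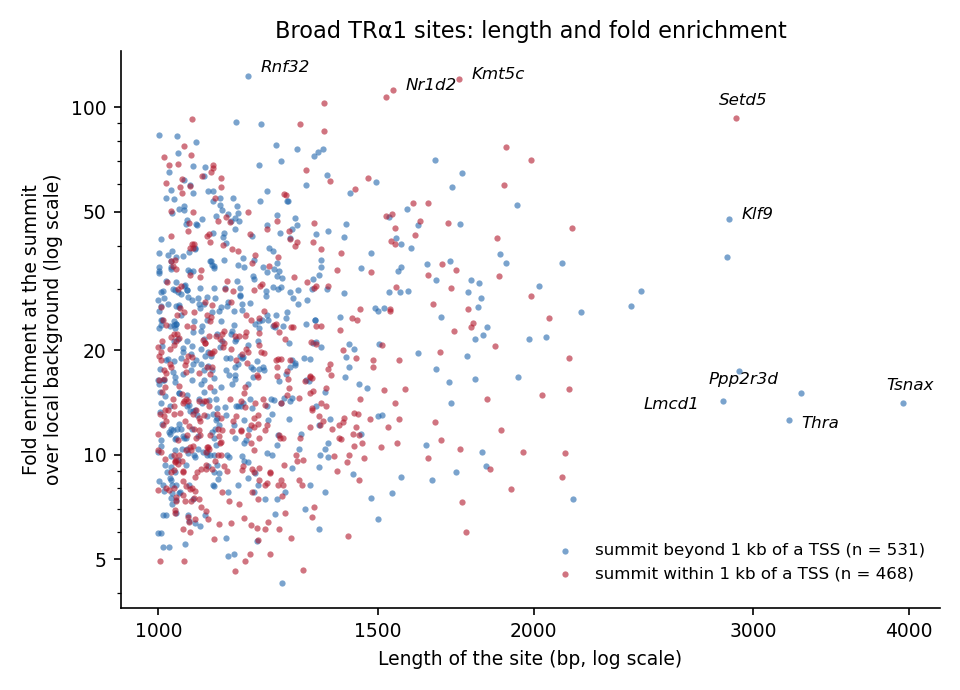
Length (x axis, bp, log scale) and fold enrichment at the summit (y axis, log scale) of the 999 broad TRBS, 1 point per TRBS. Red points have their summit within 1 kb of a protein-coding TSS (468) and blue points beyond it (531). Labels give the nearest protein-coding gene, and the 22 TRBS of 2000 bp or more span most of the range of fold enrichment.

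The length limit cut through a continuous range. Just inside the length limit, 8 TRBS of 1000 bp had a median fold enrichment of 10.9, and the first 3 in genome order, near Cab39, Foxo3 and Zkscan6, had 7.93, 16.4 and 20.4. Just outside it, the only 3 TRBS of 999 bp, near Map9, Nr3c1 and D5Ertd579e, had 47.2, 45.5 and 27.8. The background limit fell in a gap, with 5.35, 5.11 and 4.86 fragments at the 3 nearest members (Dbndd2, Klf10 and Mapt) and 13.1, 29.4 and 91.7 fragments at the 3 nearest excluded TRBS (Pdia4, Scaf8 and Esp38). Broad TRBS were found on 20 chromosomes. Chromosome X held 3, near Nudt11, Tmem29 and Phf8, out of 348 TRBS of the whole list there. Over all chromosomes 4.16% of TRBS were broad, and the difference was not tested.

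The longest broad TRBS, 3951 bp in an intron of Tsnax (chr8:125019910-125023860), reached a fold enrichment of 14.1, and 86.0% of its bases were soft-masked as repeats in the genome sequence. Lmcd1 was nearest to another long repeat-rich site, of 2834 bp with 89.2% repeats and a fold enrichment of 14.3. These stood apart from the median repeat share of 8.09% over all broad TRBS. Other long members lay at genes of T3 signalling. Thra, which codes for TRα itself, had an intronic TRBS of 3204 bp with a fold enrichment of 12.6. Klf9, a T3-responsive transcription factor gene, had one of 2869 bp 5194 bp upstream of its TSS with 47.7. That site covered the noncoding gene 2410080I02Rik. Further long TRBS had their summit in a coding exon of Ppp2r3d (3273 bp), in introns of S100pbp (2859 bp) and B3gnt2 (2436 bp), and upstream of Arid2 (2391 bp). Arid2 is a chromatin remodelling subunit gene. The S100pbp site contained the TSS of its gene, and the Ppp2r3d summit lay 252 bp from a transcript start. The B3gnt2 site covered the start of the noncoding gene 9130230N09Rik.

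Setd5 was the nearest protein-coding gene of a TRBS of 2903 bp with a fold enrichment of 93.3 (chr6:113074141-113077043), which was among the 10 longest and the 10 strongest broad TRBS. Its summit lay 863 bp into Gt(ROSA)26Sor, a noncoding gene whose locus is widely used to insert transgenes. The insertion site of the tagged receptor is not given in the sources used here, and its part in this site was not tested.

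The strongest broad TRBS had a fold enrichment of 123 and lay in intergenic sequence 335960 bp from the TSS of Rnf32, its nearest protein-coding gene (chr5:28859276-28860455). Promoters of chromatin and clock genes followed. Kmt5c, which codes for a histone H4 lysine methyltransferase, had 121 at 143 bp upstream of the TSS. Nr1d2, the clock repressor REV-ERBβ, had 112 at 795 bp downstream. Dot1l, which codes for a histone H3 lysine methyltransferase, had 107 at 227 bp upstream, with the highest pileup of all broad TRBS, 445 fragments. Lingo3, a neuronal leucine-rich repeat protein gene, had 103. The rest of the 10 strongest were nearest to Flywch2 (92.3), the stress-response factor gene Atf3 (90.7), the DNA polymerase gene Rev1 (89.3) and Adgrl1 (89.3). The site nearest to Atf3 lay 6568 bp upstream of its TSS, with the summit 153 bp into the noncoding gene D730003I15Rik. Of these 10, only Adgrl1 had a DR4 match within 100 bp of its summit.

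Broad TRBS lay at promoters far more often than the others. The summit was within 1 kb of a protein-coding TSS in 468 of 999 broad TRBS, which is 46.8% (95% Wilson interval 43.8 to 49.9), against 19.3% (18.7 to 19.8) of the other 22989. The share over all TRBS was 20.4%. The odds ratio was 3.70 (95% interval 3.24 to 4.21; Fisher's exact test, two-sided, p = 4.64e-82, adjusted p = 2.09e-81 over 9 tests). Against the 1966 other TRBS with a fold enrichment at or above the broad median, the odds ratio was 3.56. By region, the summit fell in the 5 kb upstream of a gene for 19.5% of broad TRBS and in an untranslated exon part for 15.5%. Coding exons took 5.31%, other exons 3.0%, introns 41.8% and intergenic sequence 14.8%, against 29.8% intergenic in the other TRBS. Within 30 kb of a TSS, the distance used by the study to attach TRBS to genes, were 75.4% of broad and 51.5% of other TRBS.

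The same held for CpG content. A 500 bp window at the summit was called CpG-rich with at least 50% GC and an observed to expected CpG ratio of at least 0.6, a rule that used none of the selecting values. This was met by 475 broad TRBS, or 47.5% (44.5 to 50.6), against 19.2% (18.7 to 19.7) of the others and 20.4% of all TRBS. The odds ratio was 3.82 (3.35 to 4.35; Fisher's exact test, two-sided, p = 2.43e-86, adjusted p = 2.19e-85). The difference was smaller within promoters. Within 1 kb of a TSS the shares were 82.7% and 76.8%, with an odds ratio of 1.44 (Fisher's exact test, adjusted p = 0.00544). Beyond 1 kb they were 16.6% and 5.45%, with an odds ratio of 3.45 (Fisher's exact test, adjusted p = 4.19e-19). Of the 88 CpG-rich broad TRBS beyond 1 kb of a gene's TSS, 55, or 62.5%, were within 1 kb of an alternative transcript start of a protein-coding gene. Over all 531 broad TRBS beyond 1 kb this held for 110, or 20.7%.

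**Figure D2:**
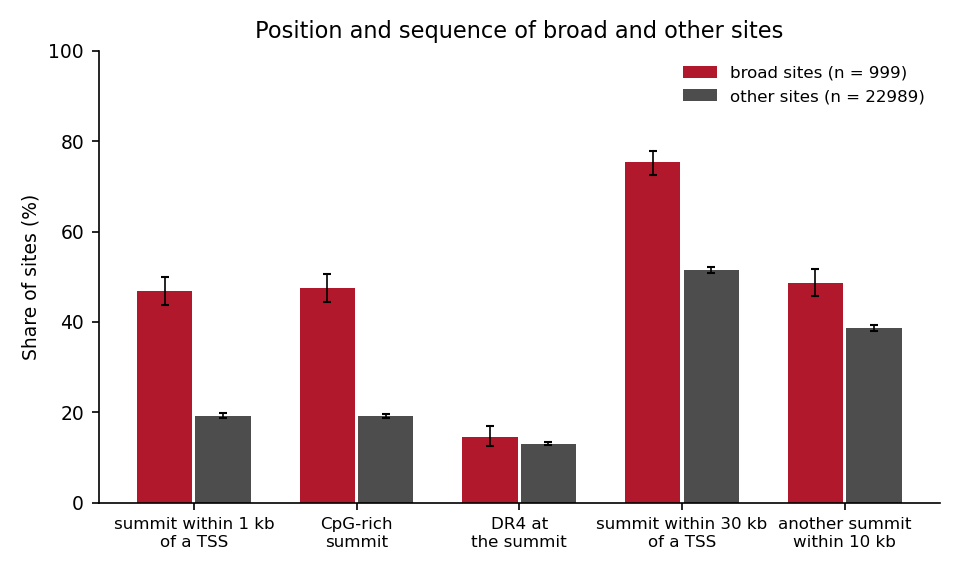
Share of sites (y axis, percent) with each property (x axis) among broad TRBS (red, 999) and other TRBS (grey, 22989). Bars are shares and whiskers 95% Wilson intervals over sites, which cover counting error only. The bars for promoters and CpG-rich summits differ, at 46.8% and 47.5% against 19.3% and 19.2%, while those for DR4 at the summit, 14.6% and 13.1%, have overlapping intervals.

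Many promoter TRBS extended into the gene. A total of 422 broad TRBS contained their nearest TSS, and 287 of them, or 68.0% (63.4 to 72.3), were longer on the downstream side (exact binomial test against equal shares, p = 1.07e-13, adjusted p = 2.42e-13). Their median length was 757 bp downstream and 481 bp upstream of the TSS. Other TRBS that contained a TSS were longer downstream in 56.7% of cases, with medians of 289 and 227 bp. The odds ratio between both classes was 1.62 (1.3 to 2.04; Fisher's exact test, two-sided, p = 1.16e-05, adjusted p = 1.74e-05). At 500 bp from the TSS, 76.8% of the broad TRBS still covered the downstream position and 47.2% the upstream one. Where every annotated transcript start was used, an alternative chosen after seeing the data, the downstream share of broad TRBS was 56.7%. That of the other TRBS was then 51.3%, with an odds ratio of 1.24 (Fisher's exact test, adjusted p = 0.024). More than 1 protein-coding TSS lay in 48 broad TRBS, or 4.80%, and in 210 other TRBS, or 0.913%. These shares were not tested, since a longer site can hold more TSS.

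**Figure D3:**
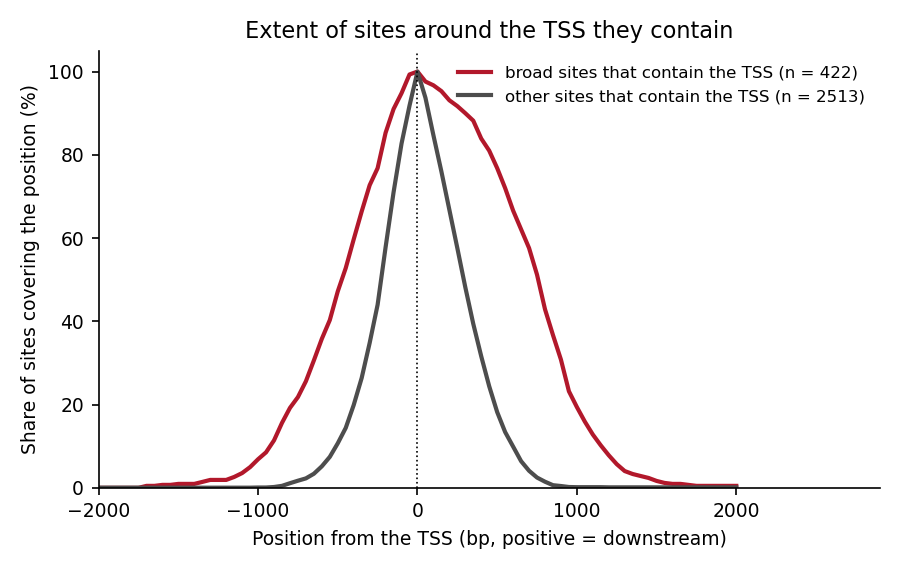
Share of TSS-containing sites (y axis, percent) that cover each position around the TSS (x axis, bp, positive values downstream), for 422 broad TRBS (red) and 2513 other TRBS (grey). The red curve falls more slowly on the downstream side, with 76.8% at 500 bp downstream against 47.2% at 500 bp upstream.

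The share of sites with DR4 at the summit did not differ past the threshold between broad and other TRBS when all sites were taken. A match with at most 2 mismatches within 100 bp of the summit occurred in 146 of 999 broad TRBS, or 14.6% (12.6 to 16.9), and in 13.1% (12.7 to 13.5) of the others. Over all TRBS the share was 13.1%. The odds ratio was 1.14 (0.944 to 1.36; Fisher's exact test, two-sided, p = 0.165, adjusted p = 0.165). The summit windows were still far richer than the same sites 5 kb to the right, where 15 of 999 windows had a match. There 143 sites had a match only at the summit and 12 only in the shifted window (exact McNemar test, p = 1.24e-29, adjusted p = 3.71e-29). Of the shifted windows of full width, 7.41% overlapped another TRBS.

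The comparison was repeated by position. Within 1 kb of a TSS it occurred in 43 of 468 broad TRBS, or 9.19%, against 6.06% of the others, with an odds ratio of 1.57 (1.09 to 2.21; Fisher's exact test, two-sided, p = 0.0123, adjusted p = 0.0138). Beyond 1 kb it occurred in 103 of 531, or 19.4%, against 14.8%, with an odds ratio of 1.39 (1.11 to 1.73; Fisher's exact test, two-sided, p = 0.00436, adjusted p = 0.0056). These differences depended on the strength of the sites compared. With a score of at least 200 in both classes, the odds ratios were 1.12 within and 1.11 beyond 1 kb (Fisher's exact test, adjusted p = 0.563 and 0.414). A further cut was put on the other TRBS alone, so that it removed weak sites on 1 side only. Among other TRBS with a fold enrichment at or above the broad median, while all broad TRBS were kept, DR4 was found in 18.4% of all, 14.4% within 1 kb and 19.4% beyond 1 kb. The odds ratios were then 0.761 (Fisher's exact test, adjusted p = 0.0123), 0.603 (adjusted p = 0.0268) and 1.00 (adjusted p = 1.0).

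Over the whole length, 281 broad TRBS, or 28.1% (25.4 to 31.0), held at least 1 match, against 14.5% of equally wide windows shifted by 5 kb to the right (exact McNemar test, p = 1.63e-13, adjusted p = 2.94e-13). No match was found in 718, 1 match in 232, 2 matches in 43, 3 matches in 2 and 10 or more in the 4 tandem repeats shown above. Those 4 sites accounted for 193 of the 517 matches. Of the remaining 324 matches, 4 had no mismatch, 36 had 1 and 284 had 2. Among the other TRBS, 17 also held 10 or more matches. Of broad TRBS with a match 33.1% lay within 1 kb of a TSS, and of those without 52.2%. CpG-rich summits made up 33.1% and 53.2%, and the median fold enrichment was 21.5 and 17.5. These values are given without a test.

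Matches were concentrated at the summit, although the sites extended far beyond it. Without the tandem repeats, their density in broad TRBS was 1.15 per kb within 50 bp of the summit, 0.352 from 50 to 100 bp, 0.183 from 100 to 200 bp and 0.133 from 200 to 400 bp. From 400 to 800 bp it was 0.202 per kb, from 79 matches in 391 kb, and the shifted windows had 0.128 per kb. The other TRBS had 1.06, 0.418, 0.195, 0.137 and 0.172 per kb at the same distances. The added length of broad TRBS thus carried matches at a density nearer to that of the shifted windows than to that of the summit.

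**Figure D4:**
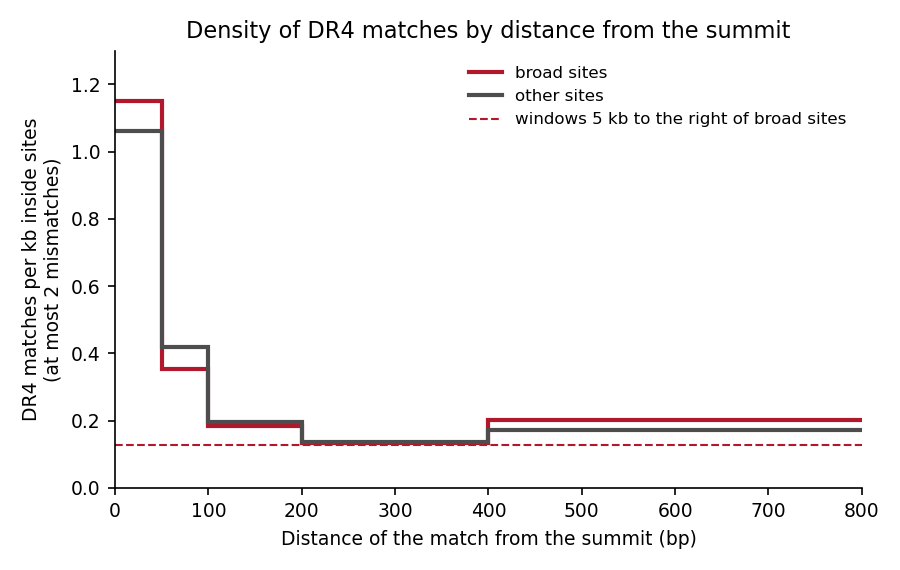
Density of DR4 matches with at most 2 mismatches (y axis, matches per kb of site) by distance from the summit (x axis, bp) in broad TRBS (red) and other TRBS (grey), without sites of 10 or more matches. The dashed line is the density in windows 5 kb to the right of broad TRBS, 0.128 per kb, and both classes fall from above 1 per kb at the summit to 0.133 and 0.137 per kb at 200 to 400 bp.

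The broad TRBS next in number of matches after the tandem repeats were taken in order of fold enrichment at equal numbers, so that their strength in part follows from this order. The intronic site of Prkci held 2 matches, both within 100 bp of its summit, with a fold enrichment of 83.3. A site 249 bp upstream of the TSS of Cep126, a centrosomal protein gene, held 3 matches, none within 100 bp of the summit, with 53.0. A site 25 bp upstream of Lncpint, a long noncoding RNA gene, and 178222 bp from its nearest protein-coding gene Mkln1 also held 3 matches, with 6.47. Sites nearest to Slc41a1, AL731706.1 and Fam19a5 had 2 matches each, with a fold enrichment of 55, 51.1 and 48.0 and none of the matches within 100 bp of the summit.

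Exact matches to motifs of other factors were counted on both strands within 100 bp of the summit. Out of 15 motifs, 4 differed between broad and other TRBS after adjustment. The GC box GGGCGG, bound by SP factors, was found in 34.6% of broad and 17.4% of other TRBS, with an odds ratio of 2.51 (Fisher's exact test, two-sided, p = 5.5e-37, adjusted p = 8.26e-36 over 15 motifs), and in 18.2% of all TRBS. The KLF motif GGGNGTGG, which can overlap a GC box, was found in 14% and 9.67%, with an odds ratio of 1.52 (Fisher's exact test, adjusted p = 8.54e-05), and in 9.85% of all TRBS. The AP-1 motif TGANTCA was rarer in broad TRBS, 7.61% against 11.6%, with an odds ratio of 0.626 (Fisher's exact test, adjusted p = 0.000178; 11.5% of all TRBS). The homeobox core TAATTA was also rarer, 2.00% against 4.73%, with 0.411 (Fisher's exact test, adjusted p = 8.54e-05; 4.62% of all TRBS).

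The motifs were also compared by position. Among TRBS within 1 kb of a TSS, 0 of 15 motifs passed Fisher's exact test after adjustment, and 0 had an unadjusted p under 0.05. The GC box was there in 55.6% of broad and 52.6% of other TRBS. Beyond 1 kb, 2 motifs passed, the GC box with 16.2% against 9.07% (odds ratio 1.94, Fisher's exact test, adjusted p = 4.18e-06) and KLF with 13.2% against 8.84% (odds ratio 1.57, adjusted p = 0.00858). Of the broad TRBS beyond 1 kb, 20.7% were within 1 kb of an alternative transcript start. The homeobox core had an odds ratio of 0.437 within and 0.588 beyond 1 kb, and AP-1 1.39 and 0.759, none of them past the threshold. The single half-site AGGTCA occurred in 16.1% of broad and 17.8% of other TRBS, with an odds ratio of 0.885 (0.741 to 1.05).

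Of 21938 protein-coding genes, 1344 had a broad TRBS within 30 kb of the TSS, or 6.13%, and 53.3% had a TRBS of any length. One broad TRBS can count for several neighbouring genes. Among the genes, 124 had 2 or more broad TRBS, 15 had 3 or more and only Nr1d1 had 4. Nr1d1 codes for the clock repressor REV-ERBα and overlaps the end of Thra on the opposite strand. Its own broad TRBS lay 1339 bp into the gene with a fold enrichment of 64.7. The other 3 within 30 kb were those of Thra, in an intron (12.6), in a coding exon (26.8) and close to the 3-prime end (11.5). The tagged receptor shares its coding sequence with endogenous Thra, and its part in these sites was not tested. Esrra, which codes for the orphan receptor ERRα, and its neighbours Catsperz and Kcnk4 had the same 3 broad TRBS. These lay in the starts of Prdx5 (19.9) and Esrra (12.2) and near Gpr137 (7.84).

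The gene lists below are described by counts beside these background shares, without a test. Of 20 genes of thyroid hormone response and action, 9 had a broad TRBS within 30 kb (45.0%) and 16 had any TRBS (80.0%). Hr, a corepressor gene induced by T3, had 1 broad TRBS among 7, at 22255 bp downstream of its TSS and nearest to Nudt18, with a fold enrichment of 24.5. Klf9 had 2 among 8, the upstream site of 2869 bp (47.7) and a promoter site 271 bp downstream of the TSS (4.63). The upstream site of Klf9 held 2 overlapping DR4 matches, but 1847 and 1852 bp from its summit. The only broad TRBS of Trp53inp2, with 72.2, had a DR4 match 5 bp from its summit, as shown above. Desi1, a deSUMOylating peptidase gene, had 1 broad TRBS among 4, with 13.8 and the exact DR4. Hcn2, a pacemaker channel gene, had 2 among 4, at its promoter (41.3) and 12354 bp upstream (8.17), neither with a DR4 match. The latter was nearest to Bsg, with its summit 211 bp upstream of the TSS of Bsg. Flywch2, at its TSS, had 92.3. The list was completed by Thra, by Nrgn, which codes for the calmodulin-binding protein neurogranin (30.1, nearest to Siae), and by the semaphorin gene Sema7a (13.6). Neither Stat5a, with 2 TRBS, nor the receptor gene Thrb, with 3, had a broad one.

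Out of 20 genes for nuclear receptor partners and coregulators, 2 had a broad TRBS (10%) and 16 any TRBS (80.0%). Over all protein-coding genes the shares were 6.13% and 53.3%, and a share near these is not a result about the list. Rxrb, which codes for the heterodimer partner RXRβ, had a TRBS of 1549 bp at 98 bp upstream of its TSS with a fold enrichment of 40.4. The gene nearest to the summit of this site was Slc39a7.

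Circadian clock genes had the highest share among the 13 lists, with 12 of 20 genes (60%), while 18 of 20 had any TRBS (90.0%). The fold enrichment of their broad TRBS ranged from 6.89 to 112. Nr1d2 reached 112, and Per3, a period gene, had 68.4 at 225 bp upstream of its TSS. Bhlhe41 and Bhlhe40, which code for E-box binding repressors, had 41.8 at 566 bp and 26.2 at 149 bp upstream. Promoter sites within 1 kb were also seen at Npas2 (23.3), Dbp (11.4), Cry1 (10.5), Ciart (10.5) and Clock (8.98). A second site of Dbp, 2765 bp into the gene, had 38.6 and a DR4 match 3 bp from the summit, the one shown above. Hlf, an output factor related to Dbp, had 74.5 at 27211 bp upstream. The 2 sites of Per1, 2077 and 5139 bp into the gene, were weaker, with 7.43 and 8.18. The 9 clock promoter sites within 1 kb had no DR4 match within 100 bp of the summit.

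Among 25 genes characteristic of striatal projection neurons, 7 had a broad TRBS (28.0%) and 21 any TRBS (84.0%). A distal site with DR4 at its summit was present for 3 of them. Ppp1r1b, whose product DARPP-32 integrates dopamine signals, had 42.4 at 2245 bp upstream of the TSS, and Pde1b had 57.3 at 1950 bp upstream. Bcl11b, which codes for the neuronal identity factor CTIP2, had 14.1 at 22117 bp into the gene with 2 matches at the summit. The dopamine receptor gene Drd1 (11.2 at 532 bp) and the transcription factor gene Foxp1 (9.91 at 865 bp) had promoter-proximal sites with no match. Sites beyond 1 kb of the TSS without DR4 at the summit also occurred. The G protein subunit gene Gng7 had 2 such intronic sites (30.2 at 29173 bp and 27.4 at 11845 bp). The exchange factor gene Rasgrp2 had 1 in an untranslated exon part (29.7 at 1978 bp). Of 20 genes for GABA synthesis and identity, 2 had a broad TRBS (10%) and 17 any TRBS (85.0%). Over all protein-coding genes the shares were 6.13% and 53.3%, and a broad share near 6.13% is not a result about the list. The 2 genes were Gabbr1, a GABA-B receptor subunit gene, and Gabrd, a GABA-A receptor subunit gene. The broad TRBS of Gabrd is the tandem repeat in Cfap74, 18649 bp upstream of Gabrd.

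Immediate early genes, which respond rapidly to neuronal activity, had a broad TRBS in 5 of 20 cases (25.0%) and any TRBS in 18 (90.0%). Over all protein-coding genes the shares were 6.13% and 53.3%. Promoter sites were found at Jun (20.1), Arc (15.6) and Egr1 (15.5), without DR4 at the summit. The sites attached to Egr2 (21.4, nearest to Ado) and Ier2 (21.9, nearest to Trmt1) had a match at the summit. Chromatin regulators also had a broad TRBS in 5 of 20 cases (25.0%), and any TRBS in 17 (85.0%). Those with a broad TRBS included Kmt5c and Dot1l as well as Setd1b (14.6) and Arid1b (5.44). In the list of synaptic vesicle release, 4 of 20 genes (20.0%) had a broad TRBS and 17 any TRBS (85.0%). The broad TRBS included a promoter site at Syt7, a calcium sensor gene (10.2), and Vamp2 shared both sites of Per1.

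Lists of other cell types and of a housekeeping class are given beside the background of 6.13%, and a share near it is not a result about the list. Astrocyte, microglia and endothelial genes had 0 of 20 each, against 8, 4 and 5 of 20 with any TRBS. Oligodendrocyte genes had 1 of 20 (5%), Mog, whose site is the one at the start of Gabbr1. Cytosolic ribosomal protein genes had 1 of 20 (5%), Rpl18, whose 2 sites are those of Dbp, while 16 of 20 had any TRBS (80.0%).

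**Figure D5:**
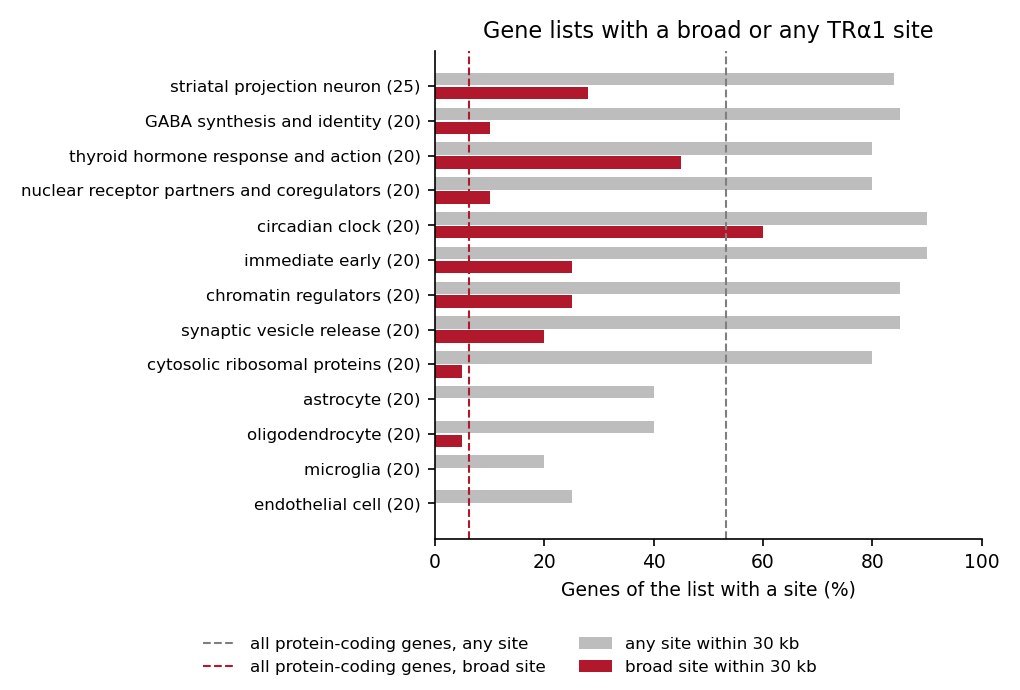
Share of genes (x axis, percent) in each of 13 lists (y axis, number of genes in brackets) with a broad TRBS (red bars) or any TRBS (grey bars) within 30 kb of the TSS. Dashed lines are the shares over all protein-coding genes, 6.13% for broad and 53.3% for any TRBS, and the red bars range from 0 for 3 glial and vascular lists to 60% for clock genes.

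Neighbouring sites were common around broad TRBS. Another summit of the list lay within 10 kb for 487 of 999, or 48.7% (45.7 to 51.8), against 38.7% (38.0 to 39.3) of the other TRBS. Among broad TRBS beyond 1 kb of a TSS this share was 58.2%, and within 1 kb it was 38.0%. The median distance to the next summit was 10509 bp for broad TRBS and 16941 bp for the others. These shares were not tested, since the distance between summits is not independent of the length of a site.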

How the data were processed

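TRα1 ChIP-seq was analysed from the deposited peak list alone, with its 2 ChIP libraries and 1 input library assigned from their titles. Per the submitters' processing notes, Bowtie2 2.3.2.2 and MACS2 2.1.1.20160309.0 were used with the mm10 build (GRCm38), and peaks with a score under 60 were removed. Pooling of the ChIP libraries and treatment of duplicates are not given in the sources used here, and the depth of the libraries was not analysed here. Pileup is the deposited coverage signal at the summit. The fold enrichment is the authors' ratio of pileup to local background. The deposited score, like the −log10 p beside it, was written by MACS for each peak and did not enter the selection.

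To obtain the local background, 1 was added to the pileup, the sum was divided by the fold enrichment and 1 was subtracted. GENCODE genes of GRCm38 (21938 protein-coding of 55413) gave the TSS as the 5-prime end of the gene, and the RefSeq genome of GRCm38 gave the sequences. DR4 was searched on both strands with at most 2 mismatches in 12 half-site bases. Shares were compared by two-sided Fisher's exact tests, and with windows 5 kb to the right by exact McNemar tests, with Benjamini-Hochberg adjustment over 9 tests or 15 motifs and a threshold of 0.05. Sites are not replicates of animals, so p-values describe this list only. Members and lists were chosen with earlier results of these data known.

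Named genes were the nearest protein-coding genes of the 10 longest, the 10 strongest and the 10 DR4-richest broad TRBS, the 5 genes with most broad TRBS, the genes named by the study, up to 4 promoter genes per list, and those at the limits. Other names, among them Ppp1r1b, Pde1b, Bcl11b and Dbp, were added after their values were seen. Some items that the rule selects are not reported here. The tests used scipy 1.17.1 under Python 3.11.15, with pandas 2.3.3, numpy 2.4.6 and, for plots, matplotlib 3.10.9. They were checked on simulated data.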

Additional observations from a re-analysis of the deposited data

How the results depend on the processing

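Over 115 alternatives, 88 left the result the same. For counts this meant a value close to the main one, and for tests the same direction and call. The promoter share (odds ratios 2.99 to 3.93), the CpG-rich share (1.44 to 4.42), the downstream excess (56.7 to 75.4%) and DR4 at the summit against the shifted window (differences of 1.90 to 24.7 percentage points) kept theirs in every alternative run, some of them chosen after seeing the data. With a length of at least 800 bp or 1500 bp there were 2414 or 125 broad TRBS and 2809 or 178 genes, with all annotated genes 2393 genes and within 10 kb 803 genes. The comparison of DR4 between broad and other TRBS depended on the settings. At 1500 bp its odds ratios were 0.970 for all sites, 1.62 within and 1.06 beyond 1 kb of a TSS, and the whole-site difference of 8.00 percentage points missed the threshold. With other TRBS at or above the broad median of fold enrichment they were 0.761, 0.603 and 1.00, with a score of at least 200 they were 0.945, 1.12 and 1.11, with at most 1 mismatch 0.660, 1.18 and 0.812, and at the midpoint of the site 0.517, 0.594 and 0.691. A window of 50 bp gave 1.24 for all sites, now past the threshold, and 1.43 within 1 kb, and a TSS distance of 500 bp gave 1.40, both short of it. Of 15 motifs, 4 differed in all sites, 0 within and 2 beyond 1 kb. The causes were not tested. No analysis paired by library was possible because the list carries no values for single libraries. With 1 list from 1 input and no untagged control, neither replicate agreement nor unspecific signal can be assessed.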
